A study of Mus musculus with 9 samples.

Results

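The RNA of 101 protein-coding genes of oxidative phosphorylation was examined among the 47731 genes counted in mouse macrophages labelled Tet2 knockout or wild type. Members were chosen by symbol alone: names that begin with mt-, Nduf followed by a, b, c, s or v and a digit, Sdha to Sdhd, Uqc, Cox4 to Cox8, or Atp5. Subunits with other symbols, among them Ndufab1 of complex I and Cyc1 of complex III, were therefore not members. Of 134 symbols with such a name, 24 mitochondrial rRNA and tRNA genes and 9 pseudogenes were left out. The members comprised 13 genes of the mitochondrial genome and 88 nuclear genes. The nuclear members were 37 of complex I, 4 of complex II, 8 of complex III with 3 of its assembly factors (Uqcc1 to Uqcc3), 19 of complex IV and 17 of complex V. Ndufa4, named after complex I, was counted with complex IV, to which its protein belongs. The 4 listed peaks of 5-hydroxymethylcytosine (5hmC) on mitochondrial DNA were added.

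Oxidative phosphorylation is the chain by which mitochondria make ATP. Complexes I and II pass electrons from NADH and succinate to ubiquinone, complex III passes them on to cytochrome c, and complex IV reduces oxygen, while the proton gradient that builds up drives complex V, the ATP synthase. Most subunits are encoded in the nucleus and imported, whereas a few core subunits of complexes I, III, IV and V are made inside the organelle from mitochondrial DNA, and in macrophages the balance between this chain and glycolysis shifts with activation.

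All libraries came from mouse macrophages at passage 0 that were treated with M-CSF (macrophage colony-stimulating factor). RNA was ribosomal-RNA-depleted total RNA from 2 libraries labelled knockout (KO_1 and KO_2) and 3 labelled wild type (WT_1 to WT_3), and 5hmC was measured after biotin tagging in 2 libraries of each label. The labels name no knockout allele, Cre, animal, age or batch. Nothing in them tells whether replicates were separate cultures or animals, and the spread on which each p-value rests may be technical.

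Library totals were 16053426 and 25479447 gene counts under the KO label and 17569441 to 56394358 under the WT label. Levels are given as normalised CPM, counts per 1000000 of the library size scaled by edgeR's TMM factor. Tet2 itself did not follow the labels: its normalised CPM was 228 and 122 in KO_1 and KO_2 and 104, 136 and 39.2 in WT_1 to WT_3. A gene-level count cannot check an allele that removes part of the gene, and the libraries are therefore named by their labels throughout. Marker sums are in plain CPM, per 1000000 gene counts without the TMM factor. The 8 macrophage markers summed to 18506 and 20691 plain CPM under the KO label and to 13470 to 18919 under the WT label. WT_3 stood apart by 14 stromal and osteoblast markers, with 5283 plain CPM against 7.63 to 25.7 in the other libraries. The 30 cell cycle genes had a mean log2(normalised CPM + 0.5) of 3.32 in WT_1 and 5.79 to 6.97 elsewhere. In plain CPM, granulocyte markers (8 genes) ranged from 1.56 to 177 under the KO label and from 1.97 to 128 under the WT label, megakaryocyte markers (5 genes) from 39.4 to 47.1 and from 85.9 to 212, and B cell markers (6 genes) from 12.0 to 24.9 and from 0.911 to 16.0. The defining markers Cd3e, Cd8a, Hbb-bs and Alas2 of T cells and erythroid cells were at 0 in all 5 libraries. The part of these differences in the results below was not tested, except where a value without a library is given.

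Counted reads of the mitochondrial genes differed by orders of magnitude along their genome under both labels. Because these genes have no introns, their counts are given per length, as plain CPM per kilobase of gene. These values order the genes by counted reads. The part of reads shared with nuclear copies in that order was not tested, so it need not be the order of RNA levels. The highest protein gene was mt-Co1, the catalytic core subunit of complex IV, with 5761 and 2876 CPM per kilobase in KO_1 and KO_2 and 3229, 3346 and 2390 in WT_1 to WT_3. It alone held 76.7% to 81.7% of the counts of the 13 mitochondrial protein genes under the KO label and 74.6% to 79.7% under the WT label. In the WT-labelled libraries mt-Nd1 followed with a mean of 582 and mt-Cytb, the core of complex III, with 357 CPM per kilobase, and these means lay further apart than the libraries of either gene. The means of mt-Nd5 (94.6), mt-Nd2 (93.9) and mt-Nd4 (70.8) were closer to each other than the libraries of each gene. The lowest gene outside the run described next was mt-Nd6, the one member encoded on the opposite strand, with 18.1.

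The 6 neighbouring genes between mt-Co1 and mt-Nd4 were almost without counts in every library. These were mt-Co2, mt-Atp8, mt-Atp6, mt-Co3, mt-Nd3 and mt-Nd4l, which span positions 7013 to 10173 of MT in build GRCm38. Their counts summed to 16 and 26 in KO_1 and KO_2 and to 25, 77 and 97 in WT_1 to WT_3, while mt-Co1 next to them had 87648 to 265521. The 6 genes thus held 0.00914% to 0.0348% of the mitochondrial protein gene counts, and the highest upper bound of the exact 95% binomial intervals was 0.0424% (counting error only). mt-Nd4l had 0 counts in all libraries. The gap was present under both labels. As a share of all gene counts the 6 genes took 9.97e-05% and 0.000102% in KO_1 and KO_2 and 0.000142%, 0.00015% and 0.000172% in WT_1 to WT_3, lower in both KO-labelled libraries (log2 difference -0.613, exact permutation p = 0.2, the smallest possible). On chromosome 1 the pseudogene Gm10925 (24613971 to 24614651) is 681 bases long, as is mt-Atp6, and it had 2, 5, 0, 13 and 15 counts. The labels do not say how reads that match both mitochondrial DNA and nuclear copies were counted, and the part of this in the gap was not tested, so the levels of these 6 genes are uncertain. Counts per gene also do not show whether mt-Co1 and mt-Nd4, on either side, lost part of their reads. Of the 22 mitochondrial tRNA genes, 13 had no count in any library and the highest count was 92 (mt-Tw).

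**Figure D1:**
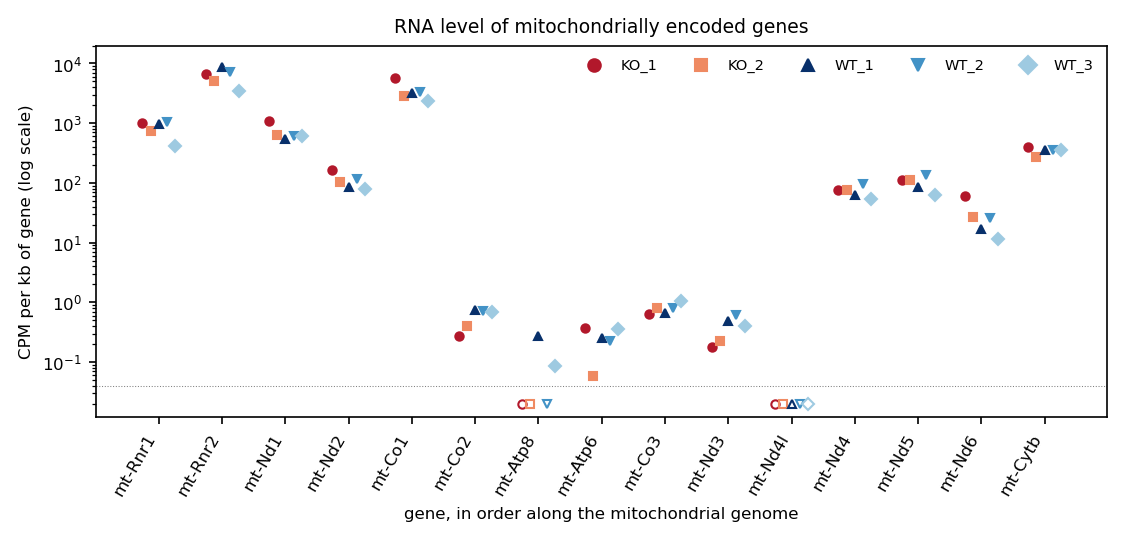
Counted RNA reads of the 2 mitochondrial rRNA genes and 13 protein genes in order along the genome. Values are CPM per kilobase of gene on a log scale, with 1 symbol per library. Open symbols below the dotted line are counts of 0. The 6 genes from mt-Co2 to mt-Nd4l lie near or below 1 in every library, between mt-Co1 at 2390 to 5761 and mt-Nd4 at 53.6 to 96.8.

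The mitochondrial protein genes together took 1.09% of gene counts in KO_1 and 0.579% in KO_2, against 0.626%, 0.667% and 0.495% in WT_1, WT_2 and WT_3. KO_1 lay above every other library and KO_2 inside the WT range, so the labels overlapped. The difference was 0.43 on the log2 scale (exact permutation test, two-sided, p = 0.6, where 0.2 is the smallest p that 2 against 3 libraries allow), and without KO_1 it was -0.0304. In each library mt-Co1 held 74.6% to 81.7% of these counts, so this share and the ratio below mostly follow that gene. Without mt-Co1 the mitochondrial share was 0.2% and 0.135% in KO_1 and KO_2 and 0.127%, 0.15% and 0.126% in WT_1 to WT_3. The log2 difference was then 0.293 (exact permutation p = 0.4). In these bulk samples fewer cells of a type and less RNA per cell cannot be told apart. Nuclear members took 0.572% and 0.772% of counts under the KO label and 0.553%, 0.723% and 0.816% under the WT label (log2 difference -0.0503, exact permutation p = 1). The ratio of mitochondrial to nuclear member counts was 1.91 in KO_1, 0.75 in KO_2, and 1.13, 0.923 and 0.607 in WT_1 to WT_3 (exact permutation p = 0.6). KO_1 combined the highest mitochondrial share with the second lowest nuclear share, whereas KO_2 lay within the WT range of both. The 2 mitochondrial rRNAs, which ribosomal depletion can remove, did not share this order and took 1.14% and 0.868% under the KO label and 1.46%, 1.23% and 0.587% under the WT label.

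**Figure D2:**
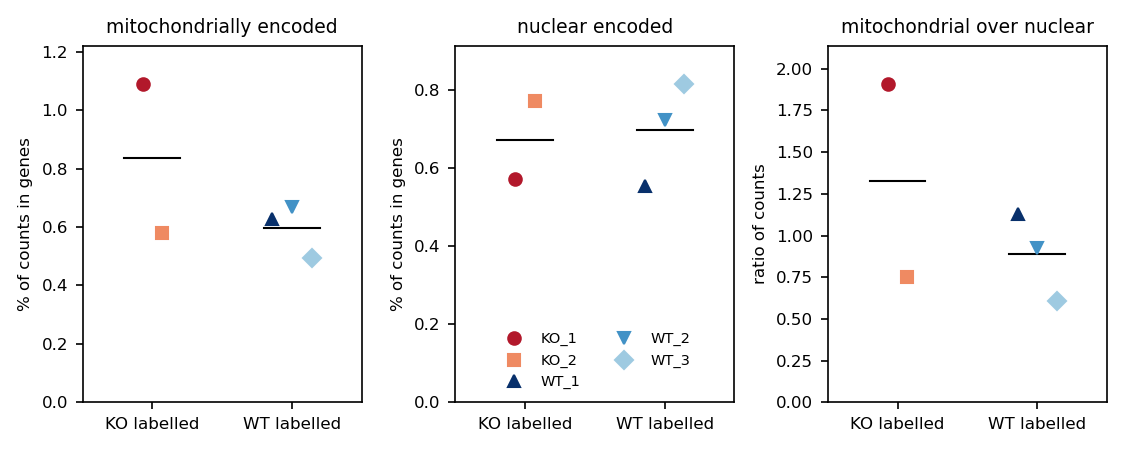
Share of gene counts in the 13 mitochondrially encoded and 88 nuclear-encoded members (%, left and middle) and their ratio (right) for each library by label; the black line is the mean of the libraries. KO_1 is highest in the left (1.09%) and right (1.91) panels, and KO_2 lies within the WT range in all 3.

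Gene by gene, none of the 9 mitochondrial protein genes with enough counts to be tested passed edgeR's quasi-likelihood test across all genes (Benjamini-Hochberg adjusted p under 0.05), and none was under 0.05 unadjusted or called by DESeq2. The fitted level was higher under the KO label for 6 of 9, with a median log2 difference of 0.20, but the direction of the median was not stable. It was 0.023 without KO_1, -0.0553 without WT_3 and -0.0802 without a filter on low counts. mt-Co1 had 8724 and 4309 normalised CPM in KO_1 and KO_2 and 5994, 4879 and 3481 in WT_1 to WT_3, so KO_1 was highest and KO_2 second lowest. The same shape was seen for mt-Nd2, a core subunit of complex I, with 166 and 104 under the KO label and 109, 112 and 78.1 under the WT label. mt-Nd1, another core subunit, had 1010 and 579 against 622, 544 and 545. Neither mt-Nd4 (105 and 100 against 103, 126 and 69.6) nor mt-Nd5 (203 and 202 against 187, 234 and 107) showed KO_1 apart from the rest. For mt-Cytb the lowest library was KO_2 (306), and KO_1 (446) lay inside the WT range of 377 to 496.

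mt-Nd6, a membrane subunit of complex I, was the only mitochondrial gene with both KO-labelled libraries above every WT-labelled one. It had 30.3 and 13.5 normalised CPM in KO_1 and KO_2 against 10.7, 12.5 and 5.68, with KO_2 just above WT_2. The log2 difference was 1.19 ± 0.50 (SE), and it did not pass the test (edgeR adjusted p = 0.38). Relative to the neighbouring mt-Nd5 the ratio of counts was 0.149 in KO_1 and 0.0666 in KO_2, against 0.0571, 0.0532 and 0.053 (exact permutation p = 0.2, the smallest possible, for a ratio chosen after its values were seen). Whether counting used strand is not stated in the labels, and without strand reads of mt-Nd6 and of RNA antisense to it cannot be told apart. mt-Co2 was the only tested mitochondrial gene without overlap in the other direction, with just 3 and 7 counts against 9, 25 and 27.

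Among the nuclear members small differences ran mostly in 1 direction, and 1 library carried much of them. No member passed the test: edgeR called 0 of 91 tested members, where 2 of 14851 genes (0.0135%) were called in all. At an unadjusted p under 0.05 there were 3 members (Ndufa7, Ndufa3 and Cox7a2l), which is below the 13.8% of all genes. DESeq2 called 2 members, Ndufa3 and Ndufa7, where it called 8.15% of all genes. The fitted level was lower under the KO label for 64 of the 91 members and for 61 of the 82 nuclear ones, against 51.6% of all genes tested. The median log2 difference of the nuclear members was -0.15, beside -0.0255 for all genes. Both KO-labelled libraries lay below every WT-labelled one for 15 members (19.0% of all genes) and above for 4 (17.2% of all genes), shares close to or below those of the whole table.

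The members also differed little in size. Only 4 of the 91 were past 2-fold, against 21.7% of all genes, and these were mt-Nd6 and the barely counted Cox7a1, Cox6a2 and mt-Co2. Among genes with a mean of at least 5 normalised CPM, the median size of the log2 difference was 0.172 for 78 nuclear members and 0.343 for 10342 genes. KO_1 had the lowest normalised CPM of the 5 libraries for 62 of the 82 nuclear members (75.6%), and KO_2 for 1 member. Among all genes tested KO_1 was lowest for 25.8%. This order rests on the TMM factor, which was 0.8327 for WT_1 and 1.021 to 1.075 for the other libraries. As a plain share of gene counts the nuclear members were lowest in WT_1 (0.553%), with KO_1 next (0.572%). Without KO_1 the median of the nuclear members was 0.062, with 36 of 85 lower under the KO label, and without KO_2 it was -0.363, with 77 of 85 lower. Without the stroma-bearing WT_3 it was -0.0746 (53 of 82 lower), and without WT_1 it was -0.195 (75 of 83 lower). KO_1 was also the library with the fewest counts, and the part of depth in its low values was not tested.

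**Figure D3:**
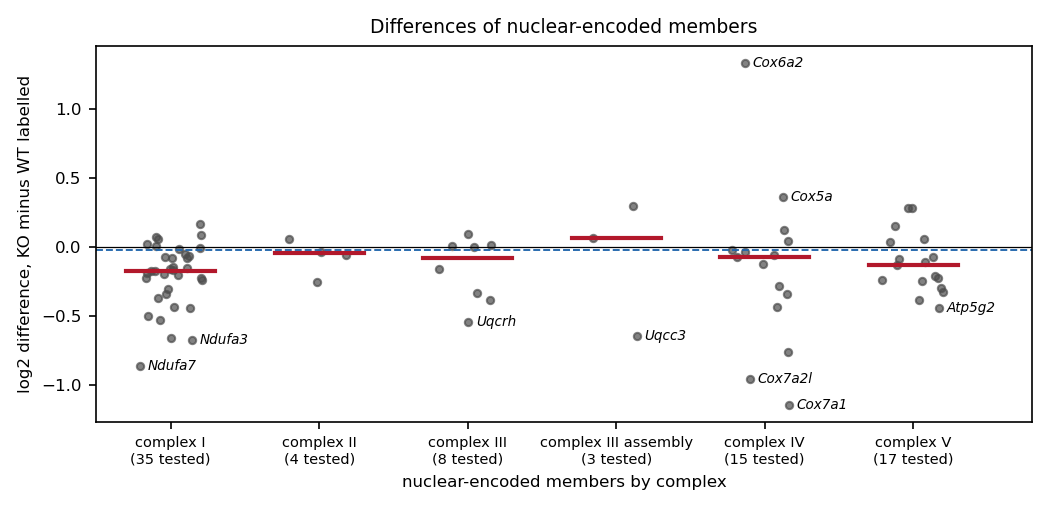
Log2 difference (KO minus WT label) of each tested nuclear-encoded member by complex; red bars are medians, the dashed line is the median of all 14851 genes (-0.0255), and points are spread sideways at random for legibility. Complex I has 29 of 35 points below 0, and the few points past 0.8 in size are Ndufa7 in complex I and Cox6a2, Cox7a1 and Cox7a2l in complex IV.

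Complex I, the largest complex and the entry point of NADH, had the most members with lower fitted levels: 29 of 35 tested, with a median log2 difference of -0.17. In 7 of them both KO-labelled libraries lay below all WT-labelled ones, and in none above, a share close to the 19.0% of all genes tested. All 7 were accessory subunits, which surround the catalytic core: Ndufa1, Ndufa2, Ndufa3, Ndufa7, Ndufa13, Ndufb10 and Ndufb11. Ndufab1, an accessory subunit outside the symbol rule, had both KO-labelled libraries above the rest. Its normalised CPM was 46.1 and 52.2 against 32.5, 40.6 and 42.9 (edgeR adjusted p = 0.526). The 28 tested accessory subunits had a median of -0.197, while the 7 nuclear core subunits, which hold the flavin and the iron-sulfur clusters, had a median of -0.0702 and none without overlap. The difference between core and accessory subunits was not tested.

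Ndufa7 was the member with the smallest p. Its normalised CPM was 33.9 and 32.5 in KO_1 and KO_2, and 69.5, 53.8 and 58.5 in WT_1 to WT_3. The KO-labelled libraries were nearly equal and well below the rest, a level 1.83-fold higher under the WT label (log2 difference -0.87 ± 0.21 SE), yet edgeR's adjusted p was 0.219. With DESeq2 the adjusted p was 0.00603, and over the other alternatives it ranged from 0.198 to 0.995. Ndufa3 had 24.1 and 30.3 against 43.6, 42.7 and 44.2 normalised CPM. Its groups were likewise apart, with a log2 difference of -0.68 ± 0.21 (SE), an edgeR adjusted p of 0.273 and a DESeq2 adjusted p of 0.0381 (0.263 to 0.995 over the other alternatives). For both genes the fitted level stayed lower under the KO label in all 13 alternatives, from -0.947 to -0.794 for Ndufa7 and from -0.869 to -0.519 for Ndufa3.

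No such separation was seen for the abundant core subunit Ndufs1. This large iron-sulfur subunit had 106 and 126 normalised CPM under the KO label and 107, 113 and 108 under the WT label. The KO-labelled libraries held both the lowest and the highest value of all 5. The accessory subunit Ndufa1 had 15.3 and 18.3 against 32.3, 19.1 and 28.5, without overlap but with WT_2 close to KO_2 (edgeR adjusted p = 0.414).

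Complex II, the succinate dehydrogenase that is also an enzyme of the TCA cycle, varied least of the 5, with log2 differences from -0.258 to 0.0544 over its 4 genes. Sdha, the flavoprotein subunit, had 209 and 255 normalised CPM under the KO label and 251, 248 and 226 under the WT label. Sdhb, the iron-sulfur subunit, had 108 and 135 against 117, 125 and 109, and Sdhd, a membrane anchor, had 55.1 and 87.6 against 87.9, 78.6 and 89.7. KO_1 was the lowest library for each of these, and KO_2 was above the WT range for Sdha and Sdhb.

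Complex III had no member without overlap among its 8 genes, with a median of -0.0835. Uqcrc1 and Uqcrc2, the abundant core proteins, had log2 differences of -0.00326 and 0.00407. Uqcrh, the hinge protein, had 51.1 and 66.7 normalised CPM under the KO label and 118, 77.6 and 62.7 under the WT label, so WT_1 was far above the rest and WT_3 lay below KO_2. Uqcrfs1, the Rieske iron-sulfur protein, had 44.8 and 72.6 against 77.8, 68.9 and 83.6. The assembly factors of the complex went both ways: Uqcc1 had 33.6 and 36.0 against 28.4, 27.4 and 29.3, and Uqcc3 had 7.39 and 11.5 against 19.5, 13.3 and 11.8. Both were without overlap, and neither passed the test (edgeR adjusted p = 0.547 and 0.497).

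Complex IV held the widest range of differences, from -1.14 to 1.33, and the ends of that range were isoforms known from other tissues. Cox7a1, the heart and skeletal muscle form of subunit 7a, had 8 and 33 counts in KO_1 and KO_2 and 29, 113 and 108 in WT_1 to WT_3. Cox6a2, the muscle form of subunit 6a, had 25 and 37 counts against 2, 26 and 63. Both stayed near 2 normalised CPM or lower in every library, and their differences did not pass the test (edgeR adjusted p = 0.445 and 0.514). The 6 skeletal muscle markers summed to at most 1.76 plain CPM in any library, with Myh1, Myh4 and Myl1 at 0. The muscle form Cox8b and the Cox8c and Cox7b2 genes had 0 counts in all libraries, which allows up to 3 counts a library, and Cox4i2 and Ndufa4l2 had at most 21 and 20.

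The broadly expressed forms were present at far more counts. Cox4i1 had 178 and 250 normalised CPM in KO_1 and KO_2 and 315, 246 and 308 in WT_1 to WT_3, with KO_2 just above WT_2. Cox6a1 (129 and 121 against 98.6, 109 and 136) had both KO-labelled libraries inside the WT range. Cox6b1 (104 and 127 against 127, 122 and 117) had KO_1 lowest and KO_2 level with WT_1. Cox8a, the general form of subunit 8, had 101 and 109 against 127, 118 and 140, without overlap (edgeR adjusted p = 0.552). Cox6b2, a form known from testis, had 2 to 36 counts. Ndufa4 had 58.0 and 97.2 against 89.8, 97.7 and 107 normalised CPM, with KO_1 alone apart. Cox5a, which was outside the rule for named genes and was picked after its values were seen, was the one well-counted subunit of the complex with both KO-labelled libraries above the rest, at 120 and 132 against 89.9, 97.9 and 108 (edgeR adjusted p = 0.468).

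Cox7a2l, whose protein can join complexes III and IV into supercomplexes, had the largest difference of any nuclear member with a mean above 5 normalised CPM. Its level was 65.8 and 99.7 normalised CPM in KO_1 and KO_2 against 203, 147 and 133 in WT_1 to WT_3. Both KO-labelled libraries lay below all others, with a log2 difference of -0.96 ± 0.31 (SE), or 1.95-fold higher under the WT label. The edgeR adjusted p was 0.286 (0.0706 with DESeq2, and 0.203 to 0.995 over the other alternatives), and the difference ranged from -1.31 to -0.683 over all 13. Its relative Cox7a2, the common form of subunit 7a, had 57.4 and 79.9 against 65.9, 78.0 and 80.4, with the groups overlapping. Within each library the ratio of Cox7a2l to Cox7a2 counts was 1.15 and 1.25 under the KO label and 3.09, 1.89 and 1.65 under the WT label. That ratio does not depend on library scaling, and its exact permutation p was 0.2, the smallest possible. It was 1 of 6 within-library ratios computed, all chosen after values were seen.

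**Figure D4:**
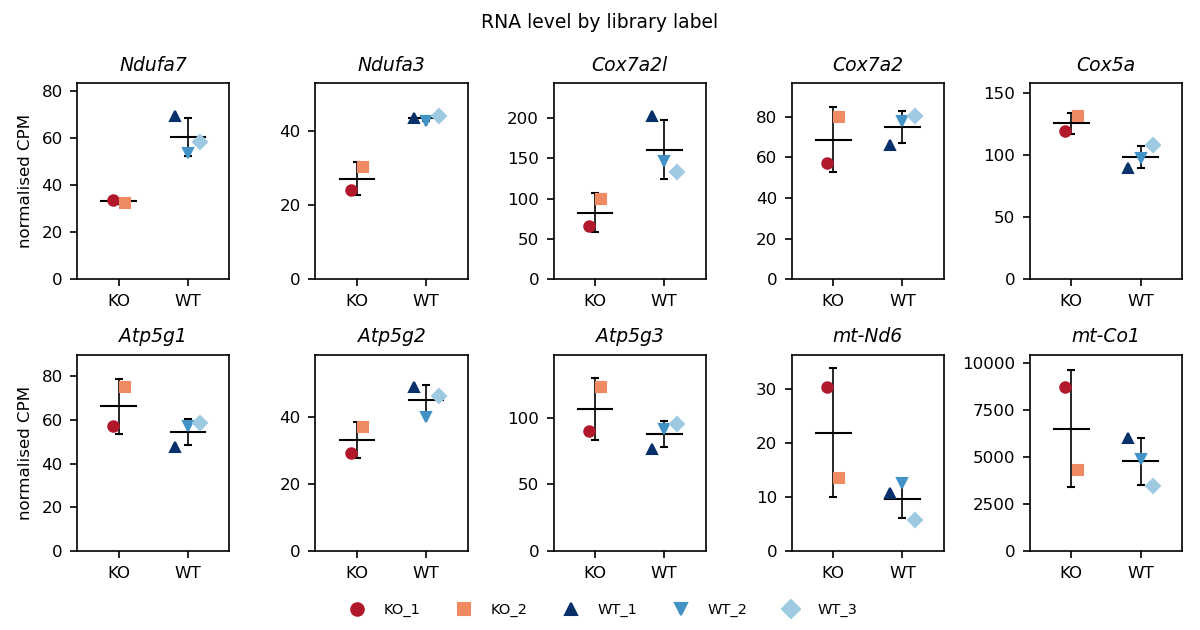
Normalised CPM of 10 members in each library by label, with the mean (line) and SD (bars) of the 2 KO-labelled and 3 WT-labelled libraries. Ndufa7, Ndufa3, Cox7a2l and Atp5g2 have both KO symbols below all WT symbols, Cox5a and mt-Nd6 above, and for mt-Co1 only KO_1 (8724) is above.

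Complex V, the ATP synthase, had 12 of 17 members with lower fitted levels under the KO label and a median of -0.133. The abundant catalytic subunits did not separate by label. Atp5b, the beta subunit, had 700 and 974 normalised CPM in KO_1 and KO_2 and 542, 725 and 1001 in WT_1 to WT_3, and Atp5a1, the alpha subunit, had 512 and 747 against 607, 653 and 755. Atp5h, a subunit of the stator, had 61.8 and 86.7 against 102, 90.7 and 98.1, without overlap (log2 difference -0.385, edgeR adjusted p = 0.501).

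The 3 genes Atp5g1, Atp5g2 and Atp5g3 encode precursors of the c subunit, which forms the rotating ring of the enzyme; their mature proteins are the same and their import signals differ. Atp5g1 had 57.3 and 74.9 normalised CPM under the KO label and 47.6, 57.2 and 58.7 under the WT label. Atp5g3 had 90.4 and 123 against 76.6, 91.4 and 95.1. In both, KO_2 was highest and KO_1 lay among the WT-labelled libraries. Atp5g2 went the other way, at 29.4 and 37.0 against 49.0, 40.2 and 46.4, with both KO-labelled libraries lowest (log2 difference -0.44 ± 0.22 SE, edgeR adjusted p = 0.436). Taken within each library, the ratio of Atp5g1 to Atp5g2 was 1.95 and 2.02 under the KO label and 0.972, 1.42 and 1.27 under the WT label. The ratio of Atp5g3 to Atp5g2 was 3.07 and 3.31 against 1.56, 2.27 and 2.05. Neither ratio overlapped between labels (exact permutation p = 0.2 each, the smallest possible), and both share Atp5g2, so they are not separate observations.

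Promoter windows of 71 members were matched in the RefSeq promoter table (GRCm38.p6, 250 bases before to 50 after the start), while 30 members, all 13 mitochondrial genes included, had none. Words of known regulators of mitochondrial genes were counted on both strands as a description. The NRF1 core GCGCATGCG was in 8 of 71 windows (11.3%, against 2.61% of 17491 protein-coding genes), the ETS core CCGGAAG in 16 (22.5% against 12.9%), the YY1 core AAGATGGCG in 7 (9.86% against 2.14%), the ERR element TCAAGGTCA in 2 (2.82% against 0.377%) and the NF-Y box CCAAT in 32 (45.1% against 42.3%). No word contains another, but several can lie in 1 window, and 27 members held at least 1 word other than CCAAT. Within the c subunit family the words differed: Atp5g2 held the NRF1 word and no other, Atp5g3 held the ERR and NF-Y words, and Atp5g1 held the NF-Y word alone. Stretches before the start are shown for Atp5g2 and Atp5h, the complex V genes without overlap between labels that have the smallest p, 5′ to 3′ on the gene's strand. Capitals mark the NRF1 word in Atp5g2 and the reverse complement of the ETS word in Atp5h, whose NF-Y word is left in lower case. They lie at chr15:102671056-102671115 and chr11:115419926-115419983, both on the minus strand.
Atp5g2: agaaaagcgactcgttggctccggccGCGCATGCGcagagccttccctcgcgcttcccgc
Atp5h: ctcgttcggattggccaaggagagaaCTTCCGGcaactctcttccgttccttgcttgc
Whether the factors bound these windows was not measured.

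The other genes on which the chain depends were read from lists that hold none of the members, and no gene on them passed edgeR's test. At an unadjusted p under 0.05 there were 3 assembly factors or carriers, 4 mitochondrial ribosomal proteins and 1 regulator, and DESeq2 called Cox18 and Pprc1. The unadjusted counts, 3 of 49, 4 of 77 and 1 of 12, are below the 13.8% of all genes with such a p. DESeq2 called 8.15% of all genes, beside 1 of 49 assembly factors and carriers and 1 of 12 regulators, the latter close to that share. Of 49 tested assembly factors and electron carriers, 21 had lower and 28 higher fitted levels under the KO label (median log2 difference 0.0372). Ndufab1 and Cyc1 on that list are subunits that the symbol rule missed, and both were higher (log2 differences 0.345 and 0.308). Cycs, the mobile carrier cytochrome c, had 63.6 and 82.1 normalised CPM against 26.0, 39.2 and 48.6 (log2 difference 0.94, edgeR adjusted p = 0.295). Cox18, which inserts a mitochondrial protein of complex IV into the membrane, had 16.8 and 12.9 against 6.09, 8.45 and 7.89 (edgeR adjusted p = 0.276). Both were named after their values were seen. Of 29 genes of mitochondrial transcription, RNA processing and DNA maintenance, 19 were higher (median 0.231) and 13 had both KO-labelled libraries above all others, beside 17.2% of all genes. Polrmt, the mitochondrial RNA polymerase, was among them, with 40.1 and 34.3 against 25.5, 31.5 and 26.7, whereas Tfam, which packages mitochondrial DNA and starts its transcription, overlapped at 19.1 and 27.6 against 22.8, 27.3 and 25.6. Members of a list are not independent, and no list was tested as a whole.

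Among 12 tested regulators of mitochondrial genes, 5 were lower and 7 higher. Pprc1, a coactivator of the PGC-1 family, had the smallest p, at 112 and 74.5 normalised CPM in KO_1 and KO_2 against 31.4, 36.3 and 28.6 in WT_1 to WT_3. The groups were far apart (log2 difference 1.54 ± 0.25 SE), and edgeR's adjusted p was 0.162. Ppargc1b, its relative, had 9.65 and 8.91 against 4.58, 6.60 and 2.89 (edgeR adjusted p = 0.402), and Nrf1, the factor named above for its word, had 36.7 and 38.1 against 35.6, 40.1 and 34.8. Mitochondrial ribosomal proteins were evenly divided, with 37 of 77 lower and 40 higher (median 0.0144). TCA cycle enzymes (7 of 18 lower, median 0.0599), import channels (9 of 22 lower, median 0.0994) and carriers with porins (4 of 8 lower, median 0.00897) also had medians at or above that of all genes. The median of the nuclear members was thus below that of each of these lists, a description without a test.

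On mitochondrial DNA 4 peaks of 5hmC were listed, 1 each inside mt-Nd1, mt-Co1, mt-Nd4 and mt-Cytb, and all held a larger share of the peak counts in the KO-labelled libraries. 5hmC is the oxidised form of methylcytosine that TET enzymes make. The peaks lay at MT:2803-3640, MT:5636-6438, MT:11090-11518 and MT:14167-15182 (GRCm38). In the counts of KO_1, KO_2, WT_1 and WT_2, the mt-Nd1 peak had 89, 102, 23 and 39, the mt-Co1 peak 95, 106, 29 and 58, the mt-Nd4 peak 38, 49, 14 and 24, and the mt-Cytb peak 128, 114, 40 and 60. These libraries had 46230, 42489, 42678 and 219116 counts in all 9151 peaks. The 4 peaks together thus took 0.757% and 0.873% of peak counts under the KO label, 0.248% in WT_1 and 0.0826% in WT_2 (exact 95% binomial intervals 0.68% to 0.84%, 0.787% to 0.966%, 0.203% to 0.3% and 0.071% to 0.0955%, counting error only). The KO-labelled libraries lay close together, and the WT-labelled ones differed 3-fold from each other.

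Over 2544 peaks the KO-labelled pair of 5hmC libraries gave a chi-square of only 0.575 per degree of freedom, less than sampling noise gives, and the pair was counted as 1 sample, which the test assumes to vary like the WT-labelled pair. On the summed share the fold was 5.67 (log2 difference 2.5), and the exact permutation p of 0.667 is the smallest that 1 against 2 samples allow. The log2 difference was 3.3 without WT_1 and 1.71 without WT_2. In edgeR's test over 859 peaks all 4 were called higher under the KO label (adjusted p = 3.16e-05, 8.33e-04, 2.63e-11 and 3.28e-03 in genome order), with log2 differences from 2.45 to 2.91, where 17.9% of the tested peaks were called higher. With the KO-labelled libraries as 2 samples the log2 differences were 1.65 to 2.14. All 4 carry only a knockout name in the peak list, a choice that favours higher counts under that label, and of the 140 tested peaks with such a name 81.4% were called higher. The call is therefore not independent evidence of a difference. With scaling to total peak counts none of the 4 was called (adjusted p = 0.0957 to 0.181), nor was any of the 859 peaks (439 of them, 1 on MT, had an unadjusted p under 0.05). The median of all peaks then moved by -1.04, and relative to that median the 4 peaks lay 2.75 to 3.20 higher, as against 2.70 to 3.16 in the TMM fit. No library of input DNA was analysed here, so more mitochondrial DNA and more 5hmC on it cannot be told apart. A share of peak counts also rises when the other listed peaks hold fewer counts. Of the 9151 listed peaks, 1151 carry a knockout name only. WT_1 and WT_2, with 42678 and 219116 peak counts, had summed shares of 0.248% and 0.0826%. The part of the other peaks and of depth in these shares was not tested.

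**Figure D5:**
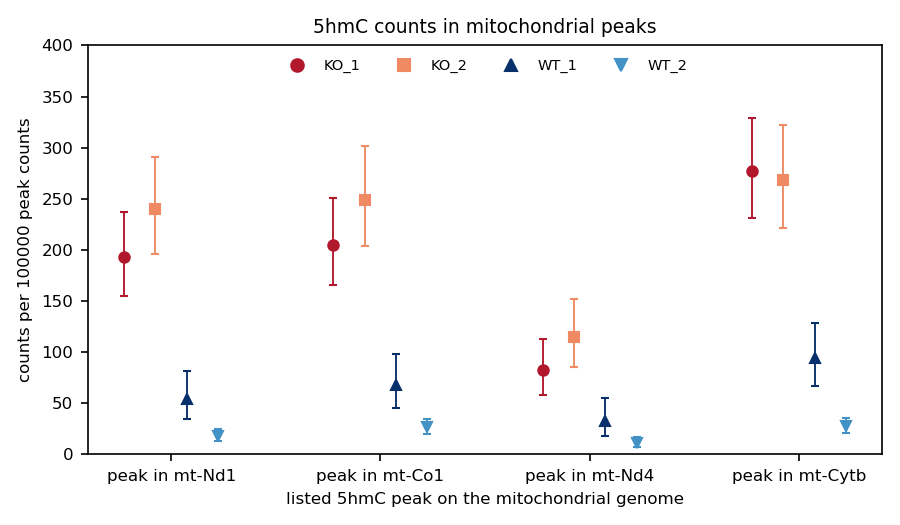
Counts per 100000 peak counts in the 4 listed 5hmC peaks of the mitochondrial genome, named by the gene they lie in, for each library; bars are exact 95% binomial intervals and cover counting error only. In every peak both KO-labelled libraries are above WT_1, and WT_1 is above WT_2.

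The listed mitochondrial peaks covered 3086 bases and left the longest uncovered stretch, 4651 bases, between the mt-Co1 and mt-Nd4 peaks. That stretch takes in the 6 genes with almost no RNA counts, the end of mt-Co1 (to 6872) and the start of mt-Nd4 (from 10167). The numbers in the peak names run from 12203 to 12208 on this chromosome, and peaks 12206 and 12207 of that run are not in the list. Peaks could thus have been called on this chromosome and not listed, and their positions are not given. If the numbers follow position, the missing peaks lie between those of mt-Nd4 and mt-Cytb, outside the stretch with the 6 genes.

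Nuclear members rarely held a listed 5hmC peak. Of 88 gene bodies 7 did (7.95%), against 16.6% of 21883 protein-coding genes, whose median length of 17170 bases is well above the 7205 of the members. The 7 were Ndufs4, Ndufs7, Ndufs8, Uqcc1, Uqcc2, Cox4i2 and Ndufa4, and 6 of these peaks carry a wild-type name alone. Counts were low, from 0 to 8 under the KO label, 2 to 8 in WT_1 and 15 to 28 in WT_2, and none of the 7 had enough to be tested. None of Ndufa7, Ndufa3 and Cox7a2l, the members with the smallest RNA p-values, held a listed peak in its gene body.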

How the data were processed

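Both assays were analysed from the authors' deposited counts, of reads per gene for RNA and of reads per peak for 5hmC. Tools listed in the submitters' processing notes are STAR, BWA, HTSeq, MACS2, Trim Galore and CASAVA 1.4, with build GRCm38. Settings for strand and for multiply matching reads are not given there.

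Groups and replicate numbers came from the sample labels. Symbols and gene positions came from gene tables (RefSeq positions, GRCm38.p6), and 47224 of 47731 genes had a symbol. Each assay was fitted whole with edgeR 4.0.16 in R 4.3.3 (two-sided quasi-likelihood test with filterByExpr and TMM, Benjamini-Hochberg adjusted p under 0.05), after a test on simulated counts. Alternatives used DESeq2 1.42.0, limma 3.58.1 (voom), other scalings and filters, leaving out each library, a replicate block and a threshold of 0.1. Shares and ratios were compared with exact permutation tests over libraries.

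Members and lists were chosen with earlier results of these data known. Named genes were all mitochondrial protein genes, the 2 nuclear members of each complex with the smallest unadjusted p, the 2 with the highest mean CPM, and the isoform families. A gene that this rule names is not reported here. Other members and all genes shown from the lists were picked after their values were seen.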

Additional observations from a re-analysis of the deposited data

How the results depend on the processing

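The count of 0 called members held in every edgeR and limma setting, at a threshold of 0.1 and with the replicate block (0 called), while DESeq2 called 2. Same-numbered RNA libraries did not deviate together (correlations 0.0705 and -0.0936, and 0.0011 for 5hmC). Such correlations cannot show whether replicates were paired, which the labels do not say, so the block is only an alternative. The mitochondrially encoded median was -0.0802 without a filter on low counts, -0.0453 with the replicate block and -0.0553 to 0.446 over the libraries left out. All 4 MT peaks were called in 7 of the settings including the first, none with total-count scaling, and, with the knockout libraries as 2 samples in each case, 2 with DESeq2 and 3 with the replicate block. The log2 difference of the summed MT share was 1.71 to 3.3 over the libraries left out. For this share and the ratio of counts, changes of scaling, filter or test leave the value as it is or do not apply, and they were not run. The causes of these changes were not tested.

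Leaving out each library in turn gave medians from -0.416 to 0.033 for complex I, -0.23 to 0.105 for II, -0.365 to 0.111 for III, -0.325 to 0.03 for IV and -0.403 to 0.0549 for V, each end set by KO_2 or KO_1. Log2 differences of shares ranged from -0.0304 to 0.882 (mitochondrial), -0.267 to 0.166 (nuclear) and -0.197 to 1.15 (ratio). Of 35 named genes tested, 15 changed sign somewhere and 20 did not. Over the libraries left out the ranges were -0.403 to 0.152 for Atp5a1, -0.121 to 0.402 for Atp5b, -0.0121 to 0.265 for Cox6a1, -0.245 to 0.0668 for Cox6b1, -0.395 to 0.0948 for Cox7a2, -0.0615 to 0.205 for Ndufs1, -0.225 to 0.0796 for Sdha, -0.132 to 0.211 for Sdhb, -0.644 to 0.0389 for Sdhd, -0.208 to 0.166 for Uqcrc1, -0.246 to 0.207 for Uqcrc2, -0.141 to 0.85 for mt-Co1, -0.451 to 0.0678 for mt-Cytb, -0.157 to 0.251 for mt-Nd4 and -0.0553 to 0.464 for mt-Nd5. With the replicate block Sdhb was at -0.00245, Uqcrc1 at 0.0266, mt-Nd4 at -0.149 and mt-Nd5 at -0.0453. Uqcrc1 was at 0.0164 with DESeq2 and with RLE scaling, 0.0425 with total-count scaling and 0.0105 with a mean count of at least 10, and Uqcrc2 at -0.0103 with limma-voom and -0.0206 without a filter. None of these genes was called. Scaling moved the median of all genes by at most 0.0536.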
